A study of Populus trichocarpa with 18 samples.

Results

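Counted in tension wood but absent from the table of normal wood were 4531 genes of Populus trichocarpa (black cottonwood), and the 200 of them with the most counts are described here. They were chosen by the measured counts themselves: no count in any of the 9 normal-wood libraries and the highest sum over the 9 tension-wood libraries, with equal sums ordered by identifier. The 200 genes are 4.41% of the 4531 and are drawn from 11294 genes listed for either wood. Absence from normal wood and a high sum in tension wood chose them, so both are given as a description with no test.

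The trees were wild type, 5 to 12 months old and grown from cuttings, and the tissue of every library was stem differentiating xylem, the layer in which new wood cells enlarge and build their walls. Tension wood came from stems kept bent for 21 days; the labels do not say whether the normal stems were left upright. Bands of xylem, 3 per wood, named Region 1, Region 2 and Region 3, were cut by laser from sections 16 µm thick, and about 1600000 µm2 of a band made up 1 biological replicate. Each of the 6 groups of wood and region held 3 biological replicates. How many trees went into a replicate and how the regions lie relative to the cambium are not stated in the labels.

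Tension wood is formed on the upper side of a leaning broadleaf stem, where its contraction pulls the stem upright. Its fibres often carry an inner wall layer that is rich in cellulose and poor in lignin, and xylem cells pass from division through enlargement and wall thickening to death as they move away from the cambium. The libraries tag transcripts next to the poly(A) tail, so a count is a tag of 1 gene and does not grow with transcript length. The reference gene table matched 0 of the 11294 identifiers, so no gene below has a name or a known function, and the labelled tissue could not be checked against its markers. Genes are therefore described by identifier, level and pattern, and tags of closely similar gene copies may have been counted together or apart.

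Depth differed between the woods and set what absence can mean. The 9 normal libraries held 6254 to 20080 counts each and 96725 in all, and the 9 tension libraries 8982 to 89358 counts each and 426338 in all. A count of 0 over all normal libraries allows up to 3 counts, or 31.0 CPM (counts per 1000000 counts of the library or libraries), and this limit covers counting error only. The woods are in separate tables with no preparation named, so wood, preparation and counting cannot be told apart. Between a normal and a tension library the rank correlation (Spearman) across the 4347 genes of both tables ranged from 0.057 to 0.146 over 81 pairs, with a median of 0.097. The genes are not independent points, and the part of this low likeness in the absence of the 200 genes was not tested. In material pooled from many cells, fewer cells of a type and less RNA per cell cannot be told apart either.

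The 200 genes had between 72 and 727 counts in tension wood, with a median of 92. Sums of 100 or more were reached by 75 of them and sums of 150 or more by 21. Together they held 20994 counts, 37.4% of all counts of genes listed in tension wood only. Most of the 4531 genes were rare: 2102 of them (46.4%) had a single count and the median sum was 2. The limit of the list fell among ties. Of 9 genes with a sum of 72, 6 were inside it and 3 outside, and the next lower sum was 71. Just inside stood Potri.006G061700.v4.1 and Potri.006G113300.v4.1, and just outside Potri.007G131100.v4.1 and Potri.014G141100.v4.1, all at 72 counts. Their counts expected in normal wood, defined below, were 15.1 and 13.8 inside and 16.1 and 16.3 outside, so the limit separates no level.

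The most counted gene, Potri.004G043100.v4.1, was unlike the rest because nearly all its counts came from 3 of the 9 libraries. In Region 1 it had 502, 9 and 4 counts in replicates 1 to 3. In Region 2 the corresponding values were 2, 124 and 5 counts, and in Region 3 they were 77, 2 and 2. The 3 high libraries belong to 3 different regions and to replicates 1 and 2, so neither a region nor a replicate was high throughout. At 5671 CPM its highest library stood 33.2 times above the median of its 9 libraries, 171 CPM. Its region means were 1944 ± 3227, 791 ± 1217 and 1062 ± 1499 CPM in Regions 1 to 3 (SD, n = 3), with spreads larger than the means.

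The next genes by sum were counted in every tension library. Potri.010G174200.v4.1 had, in the order of replicates 1 to 3, 50, 57 and 34 counts in Region 1, 17, 50 and 30 in Region 2, and 19, 3 and 5 in Region 3. These correspond to 575 ± 58.9, 694 ± 233 and 483 ± 184 CPM in Regions 1 to 3 (SD, n = 3), and the ranges of the 3 regions overlapped. Potri.015G035500.v4.1 had 45, 49 and 28 counts in Region 1, 13, 39 and 16 in Region 2, and 12, 17 and 9 in Region 3. Its means are 495 ± 60.6, 476 ± 189 and 1032 ± 764 CPM (SD, n = 3), and the high mean of Region 3 rests on replicate 2, at 1893 CPM in the library with the lowest total.

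Potri.003G134000.v4.1 had 48, 40 and 31 counts in Region 1, 25, 22 and 14 in Region 2, and 7, 7 and 9 in Region 3. Potri.008G095000.v4.1 had 34, 59 and 32, then 14, 25 and 16, then 13, 2 and 4 counts in the same order. For both genes, counts fell from Region 1 to Region 3, as did mean library depth, while the CPM of the 3 regions overlapped. Potri.005G260300.v4.1 had 429 ± 101, 530 ± 83.5 and 499 ± 252 CPM in Regions 1 to 3, and Potri.013G035500.v4.1 had 434 ± 58.7, 468 ± 65.5 and 350 ± 187 CPM (SD, n = 3). Potri.014G091200.v4.1 stood at 379 ± 73.1, 523 ± 322 and 460 ± 42.2 CPM, its wide spread in Region 2 coming from 35 counts in replicate 1 against 18 and 14. None of these genes had a region whose libraries all lay apart from those of both other regions.

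Potri.016G086400.v4.1 was highest in Region 1, with 25, 65 and 33 counts there, 8, 19 and 12 in Region 2, and 12, 2 and 4 in Region 3. Its means were 505 ± 223, 282 ± 68.9 and 333 ± 107 CPM (SD, n = 3), and the Region 1 library of replicate 1 lay among those of Region 2. The remaining genes of the 12 most counted had regions that overlapped in CPM. In Regions 1 to 3, Potri.001G118700.v4.1 stood at 383 ± 141, 422 ± 159 and 370 ± 200 CPM (SD, n = 3). Potri.006G084000.v4.1 stood at 408 ± 47.2, 391 ± 96.4 and 350 ± 111 CPM, and Potri.001G163200.v4.1 at 386 ± 37.6, 407 ± 137 and 340 ± 280 CPM. The last of these means rests on 18, 1 and 3 counts.

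**Figure D1:**
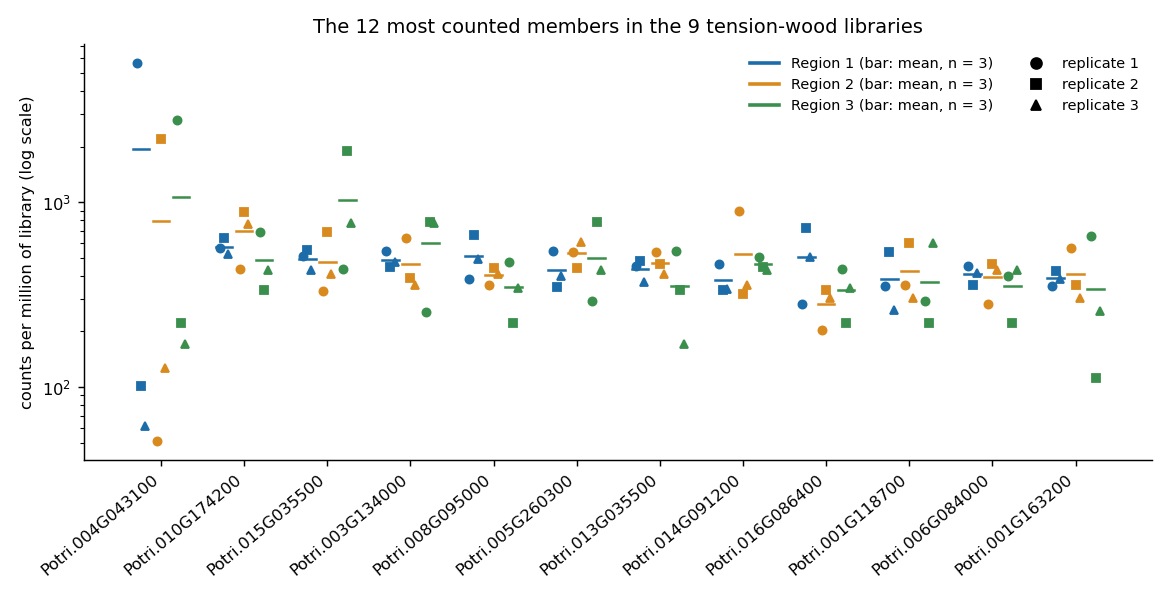
Level in CPM (log scale) of the 12 genes with the highest sums; each point is 1 tension library, coloured by region and shaped by replicate, and bars are means of 3 libraries. Potri.004G043100 ranges from 51.1 to 5671 CPM with 3 libraries far above the other 6, while for the other 11 genes the points of the 3 regions overlap.

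What the absence from normal wood amounts to depends on how many counts its libraries could have held. The expected count of a gene was its mean share of counts in the 3 tension libraries of a region times the total of each normal library of that region, summed over the 9 normal libraries. It is the count that would be found if normal wood held the gene at the level of tension wood. For the 200 genes together it came to 4665 ± 118 counts (SD over the 3 tension replicates taken singly, n = 3), against 0 found. That is 4.82% of all normal counts. Every one of the 200 was expected above the limit of 3 counts, from 13.8 to 125 with a median of 20.5.

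Set against that limit of 3 counts over the 9 normal libraries, the expected counts were 4.61 to 41.6 times as high, with a median ratio of 6.83. The highest ratio belongs to Potri.004G043100.v4.1 and so rests on 3 libraries. Next were Potri.015G035500.v4.1, expected at 60.2 counts (ratio 20.1), and Potri.010G174200.v4.1, expected at 57.7 counts (ratio 19.2). Of the 60.2 counts, 24.9 were expected in Region 3, where the mean rests on replicate 2, so their order is not firm. Potri.003G134000.v4.1 was expected at 49.0 counts (ratio 16.3). These ratios restate the choice of the genes and take the libraries of both woods as comparable. They leave out the error of the level in tension wood and are therefore not strict lower bounds.

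Single regions and libraries of normal wood carried less of that weight. Over 3 libraries each, the 200 genes were expected at 1808, 1741 and 1115 counts in Regions 1 to 3. The limit of 3 counts was reached by all 200 genes in Region 1 and in Region 2, and by 161 (80.5%) in Region 3, where single genes were expected at 0.876 counts and up. In the deepest normal library, Region 2 of replicate 1 with 20080 counts, 177 genes were expected at 3 counts or more. In the shallowest, Region 3 of replicate 3 with 6254 counts, 11 were, and in the other libraries 13 to 105. The absence described here is therefore that over all 9 libraries, not over any one of them.

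The 4531 genes as a whole are a different case. For 3567 of them (78.7%) fewer than 3 counts were expected in normal wood, so their absence was not distinguishable from lack of depth. At least 10 counts were expected for 428 of them.

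Genes at 0 counts in normal wood stood beside a larger number at 1 to 3 counts. Of 1544 genes with at least 72 counts in tension wood, 203 (13.1%) had 0 counts in normal wood, namely the 200 and the 3 tied outside the list. A single count was found for 216, 2 counts for 189 and 3 counts for 152. The median expected count of these genes rose with the count found. It was 20.5 for the genes at 0, 22.6 at 1 count, 24.2 at 2 and 25.7 at 3 counts. Over the 1544 genes the median was 27.6 counts expected and 4 found, and 1347 genes lay below their expected count against 197 at or above it. The 1544 genes were chosen by their tension sum, and the expected count is computed from the same tension counts. This split is therefore partly set by the choice and was not tested. The 111 genes at 100 or more normal counts had a median of 41.7 expected.

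**Figure D2:**
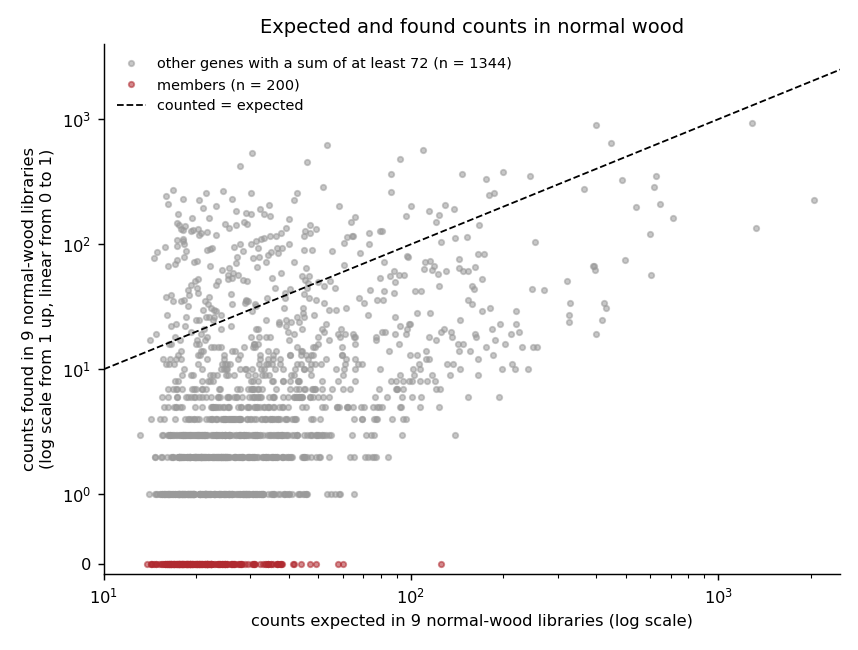
Counts expected in the 9 normal libraries at the tension-wood level (log scale) against counts found there (log scale from 1 up, linear from 0 to 1) for the 1544 genes with a tension sum of at least 72; each point is a gene, and the broken line marks equal values. The 200 genes lie at 0 found with 13.8 to 125 expected, directly below other genes at 1, 2 and 3 counts with expected counts of the same range, and the 3 tied genes outside the list are also at 0.

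Absence was rarer among the most abundant genes of tension wood. Of its 100 most counted genes 1 was absent from normal wood, and this was Potri.004G043100.v4.1. Among the 500 most counted 16 were absent (3.20%), among the 1000 most counted 75 (7.50%) and among all 8878 listed 4531 (51.0%).

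Within tension wood the 200 genes took between 4.40% and 5.29% of the counts of a library. In replicates 1 to 3 the share was 5.29%, 4.90% and 4.79% in Region 1, 4.53%, 5.18% and 4.65% in Region 2, and 4.90%, 4.40% and 4.56% in Region 3. The means were 4.99% ± 0.26, 4.79% ± 0.35 and 4.62% ± 0.25 (SD, n = 3). The ranges of the 3 regions overlapped, while within each of the 3 replicates the share was lower in Region 3 than in Region 1. In the 3 libraries where Potri.004G043100.v4.1 was high, it alone made up 10.7%, 4.24% and 5.70% of the counts of the 200 genes. Without it the means were 4.80% ± 0.084, 4.71% ± 0.23 and 4.51% ± 0.12, and Region 1 (4.72%, 4.89% and 4.79%) no longer overlapped with Region 3 (4.62%, 4.38% and 4.54%). A sum over all libraries gives the deeper Region 1 more weight, which bears on the order of these shares.

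All 200 genes had a count in each library of Regions 1 and 2. In Region 3, 199, 165 and 177 of them did in replicates 1 to 3, at totals of 27572, 8982 and 11700 counts. In the last 2 of these libraries the median gene of the list had 2 counts, against 19 in the deepest. Across the 9 libraries, 148 genes were counted in all, 45 in 8 and 7 in 7.

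**Figure D3:**
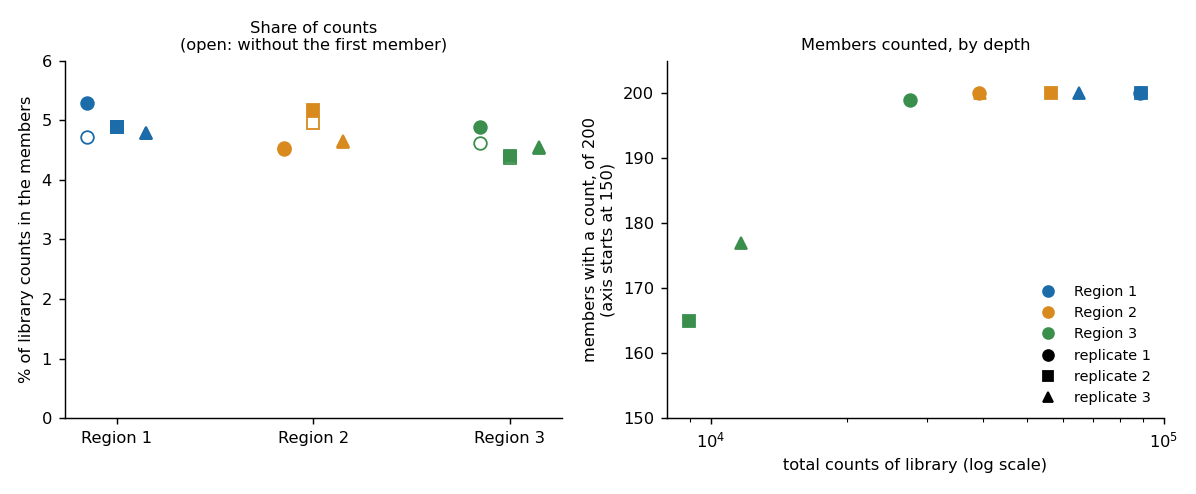
Left, percent of library counts taken by the 200 genes in each tension library, with open symbols for the value without Potri.004G043100; right, number of the 200 genes with at least 1 count against the total of the library (log scale, vertical axis from 150). Shares stay between 4.40% and 5.29% in all regions, and genes without a count appear only in the 3 Region 3 libraries, 35 of them in the one with 8982 counts.

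The comparison of regions asks whether these genes differ between bands of the xylem. The choice of genes did not use this contrast, but the sum it used gives the deeper Region 1 more weight, so the 2 are not independent. The quasi-likelihood test of edgeR, with the biological replicate as a block and p-values adjusted over all genes, called 0 of them in each of the 3 comparisons. The filter on low counts left 106 of the 200 genes among 1171 genes tested. Those 106 passed through their higher levels and do not stand for the list, so their counts are not set against the background as support. Between Region 2 and Region 1 the edgeR test called 2 of the 1171 genes (percent called 0.171%, or 0.0854% in each direction), none of them on the list, and the lowest adjusted p of a listed gene was 0.971. Between Region 3 and Region 2 it called 0 genes (0%), with a lowest adjusted p of 0.968 on the list. Between Region 3 and Region 1 it called 4 genes (0.342%), and the lowest adjusted p on the list was 0.625.

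Before adjustment, p was under 0.05 for 6, 5 and 4 of the 106 genes in Region 2 against 1, 3 against 2 and 3 against 1. These are 5.66%, 4.72% and 3.77% of the 106. Over all genes tested it was 4.27%, 4.78% and 6.66%, or 50, 56 and 78 genes, given for scale only because the filter chose the 106. DESeq2 called 0 of the 106 in each comparison as well, with an unadjusted p under 0.05 for 0, 1 and 0 of them. With the minimum count lowered to 3 all 200 genes were tested, and edgeR called 0 of them in each comparison (lowest adjusted p = 0.995, 0.712 and 0.507).

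The middle of the fitted changes depended on the filter. For the 106 genes that passed it, the median log2 fold change was -0.02 for Region 2 against Region 1, against 0.01 over all genes tested. For Region 3 against Region 2 the medians were 0.04 and -0.02, and for Region 3 against Region 1 they were 0.01 and -0.01. The genes of the list ranged from -1.12 to 1.32, from -1.61 to 1.23 and from -1.62 to 1.27 in these comparisons. With the minimum count at 3 and all 200 genes fitted, the medians were -0.05, -0.21 and -0.25 for Region 2 against 1, 3 against 2 and 3 against 1, against -0.01, -0.14 and -0.15 over all genes tested. With no filter they were -0.16, -0.26 and -0.41, against -0.12, -0.28 and -0.43. The filter asks for a high level in some libraries, so a gene could pass through the region where it was high, which can bear on the signs of the 106 genes. Over all 200 genes the median level was 225, 221 and 192 CPM in Regions 1 to 3. For the 1341 genes with at least 72 counts that both tables list it was 306, 306 and 308 CPM. These differences in level were not tested, and fitted changes of genes with few counts depend on the small count that edgeR adds.

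These tests leave moderate changes undecided. The median half-width of the 95% interval of a gene's log2 fold change was 0.88, 1.20 and 1.14 in the 3 comparisons. Intervals lay wholly within 2-fold in either direction for 31, 5 and 10 of the 106 genes. For Potri.010G174200.v4.1 the log2 fold change of Region 3 against Region 1 was -0.02 with a 95% interval from -0.77 to 0.74, one that excludes a doubling. For Potri.004G043100.v4.1 the interval from -1.66 to 1.05 includes one, but it does not cover how far this gene depends on single libraries. Without the Region 1 library of replicate 1 the value was 4.04, outside that interval, so no size of change is excluded for this gene.

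**Figure D4:**
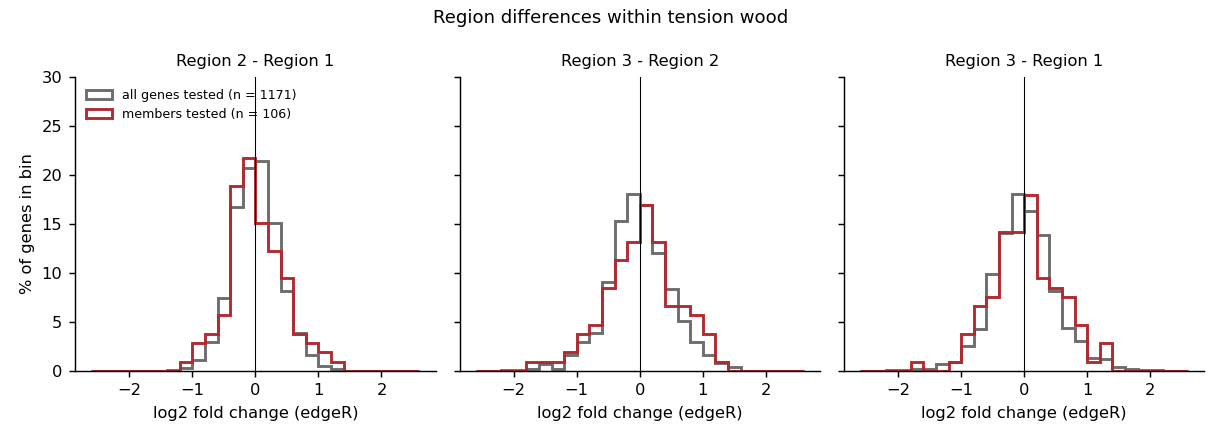
Distribution of log2 fold changes from edgeR in 3 comparisons of regions within tension wood, as percent of genes in bins; grey, all 1171 genes tested; red, the 106 of the 200 genes that passed the filter. The medians of both outlines lie between -0.02 and 0.04; the 94 listed genes that did not pass the filter are not drawn, and with all 200 fitted the medians were -0.05, -0.21 and -0.25.

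Among the 12 most counted genes, 2 had an unadjusted p under 0.05 in a comparison of regions. Potri.016G086400.v4.1 was lower in Region 2 than in Region 1 in each of 3 replicates, by a fitted -0.79 on the log2 scale (SE 0.35, adjusted p = 0.971). Potri.015G035500.v4.1 was higher in Region 3 than in Region 2 in each of 3 replicates, by a fitted 0.91 (SE 0.38, adjusted p = 0.968). Against Region 1 the value of Region 3 was 0.83 (SE 0.36, adjusted p = 0.625), with the same sign in 2 of 3 replicates.

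The other genes named in this paragraph were chosen after their values were seen. Potri.006G083600.v4.1 had 18, 11 and 13 counts in Region 1, 18, 12 and 16 in Region 2, and 7, 0 and 1 in Region 3. Its log2 fold change was 1.03 for Region 2 against Region 1 (SE 0.44, adjusted p = 0.971), and all 3 libraries of Region 2 lay above all 3 of Region 1 in CPM. Region 2, where it was highest, can have carried it through the filter on low counts, which bears on this value. Potri.015G044100.v4.1 had 26, 29 and 16 counts in Region 1, 9, 19 and 12 in Region 2, and 9, 4 and 12 in Region 3. Its libraries of Region 3 all lay above those of Region 1 in CPM, at a fitted log2 value of 0.95 (SE 0.44, adjusted p = 0.674). The gap was narrow, from 325 CPM in the highest library of Region 1 to 326 CPM in the lowest of Region 3. The Region 3 mean of 599 ± 374 CPM (SD, n = 3) rests on replicate 3 at 1026 CPM. Potri.001G072400.v4.1, at 188 ± 24.2, 269 ± 18.6 and 102 ± 14.3 CPM (SD, n = 3), had no overlap between any 2 regions, but its values in Region 3 rest on 3, 1 and 1 counts. It was not the only such gene on the list, and another was highest in Region 3 and lowest in Region 2.

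Regions without overlap were counted on the list and among all genes with at least 72 counts described below. In CPM, 7 of the 200 genes lay higher in all libraries of Region 2 than in any of Region 1, and 13 lower, beside 4.87% and 6.49% of the 1541 genes made up of the 200 and the 1341 genes with at least 72 counts that both tables list. For Region 3 against Region 2 there were 8 higher and 12 lower (background 4.22% and 5.39%). For Region 3 against Region 1 there were 10 higher and 16 lower (background 4.02% and 7.92%). In shares of the 200 genes these are 3.50% to 8.00%. No test of the difference from the background was made.

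Scatter between libraries, set against counting noise, had a median close to that of other genes, whose sums were higher. The chi-square of the 9 counts of a gene against the library totals, over its degrees of freedom, had a median of 1.67 on the list (quartiles 1.10 and 2.58), where 1 is counting noise alone. Over the 1341 genes with at least 72 counts that both tables list, the median was 1.68 (quartiles 1.11 and 2.48). Median sums were 92 counts on the list and 129 among the 1341, so scatter was not compared at equal counts. The highest library of a gene stood at a median of 1.89 times the gene's median on the list, and 1.70 times among the 1341. The chi-square over its degrees of freedom was above 3 for 35 of the 200 genes (17.5%) and 232 of the 1341 (17.3%). This chi-square value was 154 for Potri.004G043100.v4.1, and the next on the list was 10.3.

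That next gene, Potri.001G051700.v4.1, and the other uneven genes given here were also chosen after their values were seen. Potri.001G051700.v4.1 had 17, 14 and 7 counts in Region 1, 6, 12 and 6 in Region 2, and 1, 4 and 15 in Region 3. Potri.006G234100.v4.1 likewise had 15 counts in the Region 3 library of replicate 3 against 5 and 2 in replicates 1 and 2. Both stood at 1282 CPM in that library, 8.18 and 7.07 times their median over the 9 libraries. Potri.006G073500.v4.1 had 36 counts in the Region 2 library of replicate 2, and 1 to 13 counts in the others. The first 2 of these genes thus shared their high library, and the third was high in another.

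By region mean, 83 of the 200 genes were highest in Region 1, 67 in Region 2 and 50 in Region 3. These are 41.5%, 33.5% and 25% of the list. For the 1341 genes with at least 72 counts that normal wood also listed, the shares were 37.1%, 30.9% and 32.0%. The ranking by sum favours genes high in the deep Region 1, so the order on the list is partly set by the choice.

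The identifiers spread the 200 genes over all 19 chromosomes named in them, from 3 genes on chromosome 12 to 26 on chromosome 1. As a share of the genes with at least 72 counts on the same chromosome, they ran from 6.25% on chromosome 12 to 18.1% on chromosome 5. For 3 genes the number in the identifier was higher by 100 or less than that of another gene of the list. No background over other genes was taken for this count. In 16.0% of the 200 genes a gene next in identifier order had 20 or more counts in normal wood, and in 17.7% of the 1341 genes listed in both tables.

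For 1 gene the edgeR result depended on single libraries. Without replicate 1, Potri.004G043100.v4.1 was called higher in Region 2 than in Region 1 (log2 fold change 3.64, adjusted p = 1.8e-09, from Region 1 libraries with 9 and 4 counts and Region 2 libraries with 124 and 5). Without replicate 2 the same value was -4.72 and was not called. Without the Region 1 library of replicate 1 alone, it was called higher in Region 2 (3.04, adjusted p = 0.00054) and in Region 3 (4.04, adjusted p = 1.7e-05) than in Region 1. With all 9 libraries the values were 0.11 and -0.30 (adjusted p = 0.983 and 0.992).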

How the data were processed

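The authors deposited raw gene counts as whole numbers, with a separate table for each wood; per the labels' protocols, a QIAGEN UPX kit for transcript ends was used. The submitters' processing notes name STAR, featureCounts and UMI-tools; versions, settings, genome build and whether a count is a read or a molecule are not given in the sources used here. The identifiers carry annotation version 4.1. No row of either table sums to less than 1, so genes at 0 in all libraries of a table are absent from it. All columns matched a labelled sample.

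The 200 genes, and every list and rule, were chosen with earlier results of these data known. CPM and shares used all counts of a library. Regions were compared over the 9 tension libraries with edgeR 4.0.16 in R 4.3.3 (quasi-likelihood F test, TMM factors, filterByExpr at a minimum count of 10, biological replicate as block, Benjamini-Hochberg over 1171 genes, adjusted p under 0.05), and the procedure was tested on simulated data. The simulated counts had the same spread for all genes, so they do not cover genes whose libraries scatter more. DESeq2 1.42.0, other scalings, other filters, no block and left-out replicates were alternatives. The named genes are the 12 with the highest sums, those at the limit of the list, and genes called between regions, of which there were none on the list; 6 others, marked in the text, were picked after their values were seen. Fixed lists and markers by description could not be used, since no identifier has one.

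The block comes from the labels, which tie 3 regions to 1 biological replicate. In the data, deviations of same-numbered regions correlated by -0.025 to 0.014 across 1544 genes (9 pairs), so the tie was not visible. Of 36 pairs of libraries per wood, 0 were identical and none agreed within counting noise (lowest chi-square over degrees of freedom 2.22 in normal and 1.62 in tension wood). Nothing says that the biological replicates came from separate trees, so p-values measure the spread between these pools. Limits of 3 counts cover counting error only.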

Additional observations from a re-analysis of the deposited data

How the results depend on the processing

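The count of listed genes called between regions was 0 in all 3 comparisons under DESeq2 size factors, library totals, a minimum count of 3, no filter, the DESeq2 test and fits on the 6 libraries of 2 regions. Fits without 1 replicate or library gave 0 to 1 listed gene for Region 2 against Region 1 and for Region 3 against Region 1, the 1 being Potri.004G043100.v4.1, whose log2 fold change of Region 3 against Region 1 ran from -0.78 to 4.04 in these fits. Without the replicate block it was also 0, with 2, 0 and 5 calls over all genes in Region 2 against 1, 3 against 2 and 3 against 1. Over all genes the call count for Region 2 against Region 1 (2 in the main test) was 0 with DESeq2, 4 with 6 libraries and 0 to 2 without 1 replicate or library. For Region 3 against Region 2 (0) it was 0 to 1 in such fits. For Region 3 against Region 1 (4) it was 8 with no filter, 1 with DESeq2, 1 with 6 libraries and 0 to 5 without 1 replicate or library. The cause of these moves was not tested. The expected sum in normal wood (4665 counts) was 4971 scaled to genes listed in both tables, 4540 without Potri.004G043100.v4.1, 4763 from pooled shares and 4624 to 4733 without 1 replicate. All 200 genes stayed at 3 or more expected counts with pooled shares, with genes listed in both tables and without each replicate. Scaled to counts of genes listed in both tables, the shares of Regions 1 to 3 were 5.74%, 5.52% and 5.32%. Of the 200 genes, 173 were also chosen by mean CPM, 173 to 177 without 1 replicate, 170 by Region 1 alone, 157 by Region 2 alone and 123 by Region 3 alone, each list holding 200. Fold changes between regions of the 12 most counted genes changed sign without being called in 78 of 430 refits. Leaving out single libraries and the gene with the highest sum was chosen after seeing the data. Depth limits Region 3 most, where 3 counts were 334 CPM in the shallowest tension library against 33.6 in the deepest.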
